A study of Mus musculus with 35 samples.

Results

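Apelin (*Apln*), its receptor (*Aplnr*) and *Esm1*, *Kcne3* and *Cd34*, 3 genes known from endothelial tip cells, were followed through every library of the series. The 5 members were listed by name, with earlier results of these data known. They are 5 of the 53465 genes of the bulk table, and all 5 passed its minimum, a mean of 10 normalized counts over 12 libraries. FACS of dissociated E14.5 mouse brain gave neural, mural, endothelial and microglial cells, and the question put to the data was which of these populations express the members and whether they are found in the same single cells. For bulk RNA-seq each population was sorted from the same 3 wild-type brains (here the first, the second and the third, in the order of their label numbers), which gave 12 libraries, 3 per population. For scRNA-seq (mCEL-Seq2, which counts the 3' ends of transcripts by molecular identifiers) wild-type cells were sorted into the wells of plates 1 to 3, with a gate recorded for all but 37 wells, none of which had enough transcripts to be used, and *Mof* knockout cells into plates 4 to 6, for which no gate is recorded. The labels give neither the strain nor the allele or Cre behind the knockout, and they do not say whether a plate holds 1 brain. Endothelial cells were sorted for PECAM1 and CD102, microglia for CD11b and CD45, mural cells for PDGFRβ, and neural cells as those negative for vascular and blood markers. In the record of the plates, the gate of the microglial wells reads PDGFRβ and PECAM1 low, CD41 positive and CD45 medium, without CD11b. None of the members was used in a gate.

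Sprouting vessels are led by tip cells, which extend filopodia and migrate, and are lengthened by the stalk cells behind them. Tip cells are known to secrete apelin, a peptide that acts on the G protein-coupled apelin receptor of neighbouring endothelial cells, and to make *Esm1*, the secreted proteoglycan endocan. *Kcne3*, a small regulatory subunit of voltage-gated potassium channels, is a known tip cell gene as well, and *Cd34*, a surface sialomucin, marks endothelium, tip cell filopodia and blood stem cells.

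*Apln* lies on chromosome X of GRCm38 from 48025146 to 48034853, *Aplnr* on chromosome 2 from 85136225 to 85139923, *Esm1* on chromosome 13 from 113209659 to 113218098, *Kcne3* on chromosome 7 from 100176502 to 100184869 and *Cd34* on chromosome 1 from 194938819 to 194961279. *Apln* is on the minus strand and the other members are on the plus strand, and all are protein-coding. The 250 bases before the start site as RefSeq places it are shown for the members with an entry in RefSeq's table (GRCm38.p6), since the 5 genes were high in the same population. *Aplnr* had no entry. The bounds of the genes are those of GENCODE vM21, and *Kcne3* had a pair of RefSeq start sites, both inside these bounds, and the window of the first is shown, which begins before the gene's bound and runs into it. Capitals mark AGGAAG or its reverse complement CTTCCT, the core of many sites of ETS factors, the family to which the endothelial regulators *Erg* and *Ets1* belong:
*Apln*, chrX:48034854-48035103, minus strand: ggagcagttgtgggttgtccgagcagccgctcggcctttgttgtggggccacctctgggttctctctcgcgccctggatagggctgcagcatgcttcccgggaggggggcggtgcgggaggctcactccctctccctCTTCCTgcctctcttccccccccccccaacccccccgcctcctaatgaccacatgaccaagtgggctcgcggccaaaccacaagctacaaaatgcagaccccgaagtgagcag
*Esm1*, chr13:113209409-113209658, plus strand: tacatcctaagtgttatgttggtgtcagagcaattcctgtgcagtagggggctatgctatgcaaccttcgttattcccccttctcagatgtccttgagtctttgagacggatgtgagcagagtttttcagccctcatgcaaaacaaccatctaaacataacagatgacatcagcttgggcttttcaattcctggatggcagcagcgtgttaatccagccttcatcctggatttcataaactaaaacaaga
*Kcne3*, chr7:100176420-100176669, plus strand: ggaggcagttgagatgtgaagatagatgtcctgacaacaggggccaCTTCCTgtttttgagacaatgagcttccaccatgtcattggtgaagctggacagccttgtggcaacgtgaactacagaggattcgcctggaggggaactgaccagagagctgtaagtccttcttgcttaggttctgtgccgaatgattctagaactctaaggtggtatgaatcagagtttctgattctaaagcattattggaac
*Cd34*, chr1:194938571-194938820, plus strand: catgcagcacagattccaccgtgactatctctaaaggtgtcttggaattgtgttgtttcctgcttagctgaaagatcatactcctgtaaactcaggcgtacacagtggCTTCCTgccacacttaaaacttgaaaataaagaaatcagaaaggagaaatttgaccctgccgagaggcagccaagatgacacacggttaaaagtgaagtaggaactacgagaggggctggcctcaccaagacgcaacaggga
Searched on both strands, the core was found once each in the windows shown for *Apln*, *Kcne3* and *Cd34*, at 113, 204 and 142 bases from RefSeq's start, and not in that of *Esm1*. The window of the second *Kcne3* start (chr7:100178433-100178682) also held it once, at 146 bases. It was also found in 29.5% of all 32851 windows of this length. ACGTG, the core of the hypoxia response element, was found in the window of the first *Kcne3* start (140 bases from it), not in that of the second or in the others shown, and in 16.6% of all windows. A match of letters is a description and not a binding site.

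The bulk libraries held 17638358 to 98414914 reads on genes, so that 1 read was worth 0.264 to 1.77 normalized counts. The endothelial libraries had the defining genes of endothelium: the 12 markers summed to 223471 to 264067 normalized counts there, against at most 13262 in any other library. Of the markers of other cells, 4 of 7 erythroid genes were called higher in the endothelial libraries (*Hba-a1* 3719 to 10296 normalized counts), and their part in the results was not tested. In bulk, fewer cells of a type and less RNA per cell cannot be told apart.

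All 5 members were higher in endothelial cells than in every other population, with no overlap between the 3 endothelial libraries and the 9 others. Such separation was seen in 6.28% of the 19765 genes tested. With limma on log2(normalized count + 1), all 5 were called higher at an adjusted p under 0.05 and by over 10-fold, against 19.7% of genes called higher (22.4% lower, 42.1% in all) and 6.28% called higher by over 10-fold. *Esm1* and *Kcne3* reached the minimum mean only through their endothelial libraries, so their calls are a description. In the single comparisons with neural, mural and microglial cells, where 57.7%, 27.8% and 32.4% of genes were called, all 5 were called higher as well. The exact permutation p of 3 libraries against 9, two-sided and without regard to brain, was 0.00909 for each member. It is the smallest value that this permutation can give. Scaled to exon length, *Aplnr* (4486 ± 1329 normalized counts per kb, SD, n = 3) and *Cd34* (4138 ± 352) stood highest in endothelial cells and did not differ beyond their spread. *Apln* (1404 ± 429) and *Kcne3* (814 ± 493) followed, with overlapping libraries, and *Esm1* (100 ± 61.3) was lowest, with each of its libraries under every library of the other members.

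**Figure D1:**
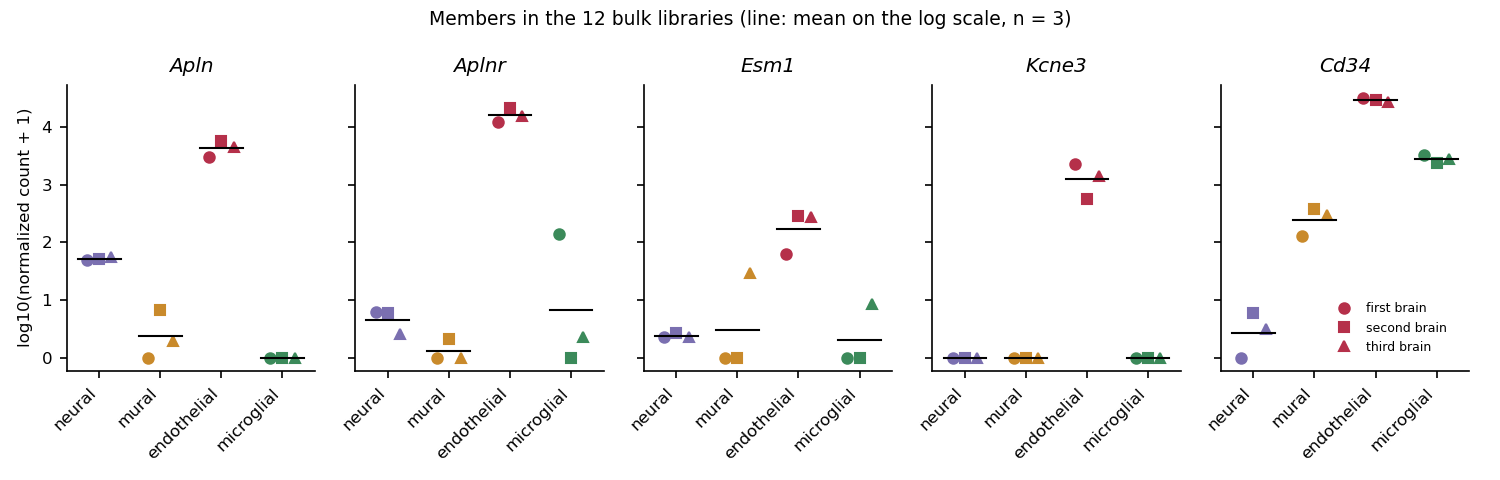
Normalized counts of the members in the 12 bulk libraries, as log10(normalized count + 1), by population and brain (symbols), with lines for the mean of 3 libraries on that scale. The endothelial libraries lie above all others in each panel, *Cd34* has a second level in microglia (2407 to 3338 normalized counts) and *Apln* a low one in neural cells (48.1 to 55.7).

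*Apln*, the ligand, was measured at 3037, 5739 and 4485 normalized counts in the endothelial libraries of the first, the second and the third brain. The neural libraries held 48.1, 50.4 and 55.7, the mural ones 0, 5.71 and 0.939, and the microglial ones 0 in all 3. The neural libraries thus stood between, close to each other and apart from both sides. The endothelial mean was 86.0-fold the neural mean and at least 1217-fold the microglial one, taking 3 reads in each library as the limit of a count of 0. The mural mean rested on 6 reads and lay under that limit, and no ratio is given for it. The log2 difference of endothelial cells from the mean of the other populations was 9.75 (SE 0.58, adjusted p = 5.2e-07, limma). Neural cells exceeded mural cells by 4.48 (adjusted p = 3.0e-04, limma) and microglia by 5.71 (adjusted p = 4.3e-05), while no difference was called between mural cells and microglia (1.23, adjusted p = 0.20). Of all genes tested, 54.6%, 59.8% and 38.0% were called in these 3 comparisons. The neural level was 1.16% of the endothelial mean, where the 12 endothelial markers stood at 0.00504% to 0.260%. The neural libraries were made with another kit (TruSeq, against SMART-Seq v4 for the others), so kit and population cannot be told apart there.

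*Aplnr*, the receptor, was measured at 12079 to 21832 normalized counts over the 3 endothelial libraries. In the neural libraries it ran from 1.59 to 5.34, in the mural ones it rested on 1 read in all, and in the microglial ones it was 136.7 (115 reads) in the first brain, 0 in the second and 1.26 (1 read) in the third. The microglial library of the first brain thus carried most *Aplnr* reads outside endothelium. In that library *Aplnr* stood at 0.824% of its endothelial mean, and the 12 endothelial markers at a median of 0.206% and at most 5.03% of theirs. The markers' part in it was not tested. Endothelial cells were 4180-fold above neural cells and 361-fold above microglia, the latter a ratio that rests on the microglial library of the first brain. No ratio is given for the 1 read of the mural libraries. The log2 difference from the others was 12.20 (SE 1.20, adjusted p = 2.2e-05, limma), and no pair of the other populations was called different (adjusted p 0.23 to 0.77). The second ligand of this receptor, *Apela*, was close to absent from endothelial cells, with 1 read in 3 libraries. It was at 11.4 to 14.7 normalized counts in neural cells and at 0.874 to 123 in mural cells, high in 1 mural library alone, and its endothelial difference was not called (−1.82, adjusted p = 0.18, limma).

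*Esm1* was the scarcest member, with 62.0, 292 and 276 normalized counts in the endothelial libraries of the first, the second and the third brain, or 424 reads in all. Elsewhere the highest value was 28.2, in the mural library of the third brain, while the other mural libraries were at 0. The groups did not overlap, but the endothelial library of the first brain lay close above that mural library. The ratio of means was 22.4 to mural cells (30 reads). Neural cells (9 reads) and microglia (6 reads) averaged 1.44 and 2.52 normalized counts, under the 2.15 and 3.63 that 3 reads in each library are worth, and no ratio is given for them. Against all others the log2 difference was 6.12 (SE 1.09, adjusted p = 0.0012, limma). Against mural cells alone it was 5.81 (adjusted p = 0.0079), a call lost with edgeR (adjusted p = 0.12), with DESeq2 (0.054) and in limma without the first (0.069) or the second brain (0.15). In the mural library of the third brain *Esm1* stood at 13.4% of its endothelial mean, where the endothelial markers had a median of 1.61% and ran up to 41.3% (*Esam*); their part in it was not tested.

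*Kcne3* was at 0 in each of the 9 libraries outside endothelium. Its endothelial values were 2330, 578 and 1439 in the first, the second and the third brain, so that the first brain, the lowest for *Apln*, *Aplnr* and *Esm1*, was the highest for *Kcne3*. The endothelial mean was at least 673-fold the neural, 576-fold the mural and 399-fold the microglial one, and the log2 difference was 10.29 (SE 0.46, adjusted p = 7.9e-08, limma). An antisense gene that overlaps its exons, *Gm34821*, had 40.0 ± 60.3 normalized counts (SD, n = 3) in endothelial cells, and the counting is not stated to use strand. Among potassium channel partners, the pore-forming *Kcnq1* went with it (1310 ± 242 in endothelial cells, at most 9.21 on average elsewhere, log2 difference 9.30, adjusted p = 7.8e-06), whereas the family member *Kcne4* was at 3735 ± 239 in mural cells and at 0 in every endothelial library.

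*Cd34* was the member shared with another population. It was measured at 27624 to 32749 normalized counts in endothelial cells, 2407 to 3338 in microglia, 130 to 385 in mural cells and 0 to 4.98 in neural cells, 4 levels with no overlap. Endothelial cells were 10.5-fold above microglia (log2 difference 3.40, adjusted p = 9.2e-04, limma), 112-fold above mural cells and 12752-fold above neural cells. Microglia in turn exceeded mural cells by 3.53 on the log2 scale (SE 0.58, adjusted p = 6.3e-04, limma). The microglial level was 9.50% of the endothelial mean, above all 12 endothelial markers, which had a median of 0.322% and reached 6.81% (*Icam2*). The mural level, at 0.896%, was under the markers' median of 1.26%. The antisense gene *Gm16897*, which overlaps exons of *Cd34*, had 114 ± 41.1 normalized counts in endothelial cells. Blood stem and mast cell genes, which share *Cd34* in blood, did not move together: of 8 tested 3 were higher and 4 lower in endothelial cells. The lower ones included *Spi1* (−4.38), *Runx1* (−5.37) and *Mpo* (−3.74), and the higher ones, against the mean of the other populations, *Gata2*, *Ly6a* and *Kit*, the last with a higher mean in mural cells (2507 normalized counts) than in endothelial cells (2024). The *Runx1* call was lost with edgeR on reads (adjusted p = 0.058) and without the second (0.066) or the third brain (0.0997).

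The genes around the members were counted from lists chosen by their known roles, beside a median log2 difference of −0.12 over all genes tested, of which 19.7% were called higher and 22.4% lower. Of 25 other tip cell genes 23 were higher and 1 lower in endothelial cells (median 5.04), among them the guidance receptor *Robo4* (11.10), the VEGF receptors *Flt4* (8.45) and *Kdr* (7.58), the peptide adrenomedullin *Adm* (7.18) and *Angpt2* (5.60). These differences are from the mean of the other populations on the log scale: 6 of the 23 had a higher mean in another population, *Nid1*, *Mcam*, *Nrp1* and *Mmp14* in mural cells, *Plaur* in microglia and *Trp53i11* in neural cells. The exceptions were the endothelin receptor *Ednrb* (−3.68) and the chemokine receptor *Cxcr4* (0.24, adjusted p = 0.67, limma). Stalk and phalanx genes were raised as well: 15 of 17 were higher and none lower (median 2.93), 4 of them with a higher mean in another population, led by *Vwf* (9.91), *Tie1* (9.59) and *Flt1* (9.16), so the bulk contrast did not separate tip from stalk. All 10 barrier genes were higher (median 6.81), led by the tight junction gene *Cldn5* (13.40), *Slco1c1* (9.93) and *Abcb1a* (9.04). So were 7 of 10 arterial and venous genes (median 3.12), led by *Sox17* (11.12), *Emcn* (8.07) and *Gja4* (7.74). Of the 7, 3 had a higher mean elsewhere: *Efnb2*, *Nrp2* and *Emcn* itself (4980 normalized counts in mural and 4905 in endothelial cells). Of 18 cell cycle genes 1 was higher (*Birc5*, 0.42, with a higher mean in mural than in endothelial cells, and −0.10 without the neural libraries) and 2 were lower (*Ccnb1*, −0.87, and *Pcna*, −0.50). Of 7 relatives and partners of *Cd34* and *Kcne3* 2 were higher, *Kcnq1* and the *Cd34* relative *Podxl* (5.79), and 4 were lower. Of 16 apelin pathway genes 5 were higher and 4 lower (median −0.33), and 1 of the 5, *Klf2*, had a higher mean in microglia. The endothelial nitric oxide synthase *Nos3* was at 7807 ± 4174 normalized counts in endothelial cells and at most 8.27 on average elsewhere (10.76), the peptidase *Ace* was higher by 3.28 (lost with edgeR, adjusted p = 0.066, and without the second brain, 0.15), the G protein subunits *Gnai1* and *Gnai2* were higher by 2.80 and 1.86, and the arrestin *Arrb2* and the G protein subunit *Gna13* were lower by 2.36 and 1.40. Of 12 hypoxia genes 1 was higher and 5 were lower, among them *Hk2* (−5.31), *Egln3* (−3.02) and *Vegfa* (−3.76, lost without the neural libraries, adjusted p = 0.10).

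Over the 12 libraries and 14863 genes with a mean of at least 50, the gene whose log2 profile was most like *Apln* was *Csgalnact1* (Pearson r = 0.987), followed by *Tnfrsf11b*, *Sema3g*, *Pdgfd* and *Tecpr1*. For *Aplnr* it was *Rflnb* (0.975), then *Cfi*, *Igsf5*, *Ccdc85b* and *Tbx1*. For *Esm1* it was *Sox18* (0.964), then *Abcb1a*, *Erg*, *Wfdc1* and *Ackr2*. *Kcne3* was most like *Gimap4* (0.998), *Mogat2*, *Myct1*, *Igsf5* and *Gm47625*, and *Cd34* most like *Vamp5* (0.994), *Ccdc125*, *Pdlim5*, *Sipa1* and *F830115B05Rik*. None of the members was in the first 5 of another. Among themselves they ran from r = 0.296 (*Apln* and *Cd34*, the first with a second level in neural cells and the other in microglia) to 0.937 (*Aplnr* and *Kcne3*). The points share 4 populations of 3 libraries, so these values are a description.

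In single wild-type cells with over 1500 transcripts, all members were found mainly in the endothelial gate. Of its 225 wells, 213 held transcripts of at least 3 of the 12 endothelial markers. *Cd34* was found in 167 wells (74.2%, exact 95% interval 68.0 to 79.8), *Aplnr* in 126 (56%, 49.2 to 62.6), *Apln* in 93 (41.3%, 34.8 to 48.1), *Kcne3* in 21 (9.33%, 5.87 to 13.9) and *Esm1* in 11 (4.89%, 2.47 to 8.58). Intervals cover counting error only. The wells held a median of 6408 transcripts, and when each was thinned to 1500 the shares were 43.5%, 22.4%, 18.2%, 2.69% and 1.83%. Plates 1, 2 and 3, with 120, 92 and 13 wells, gave 50%, 33.7% and 15.4% for *Apln*, 56.7%, 58.7% and 30.8% for *Aplnr* and 80%, 71.7% and 38.5% for *Cd34*. Plate 3 was lowest for these members, and its wells without *Apln* held a median of 3 of the 12 endothelial markers against 9 on plates 1 and 2.

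**Figure D2:**
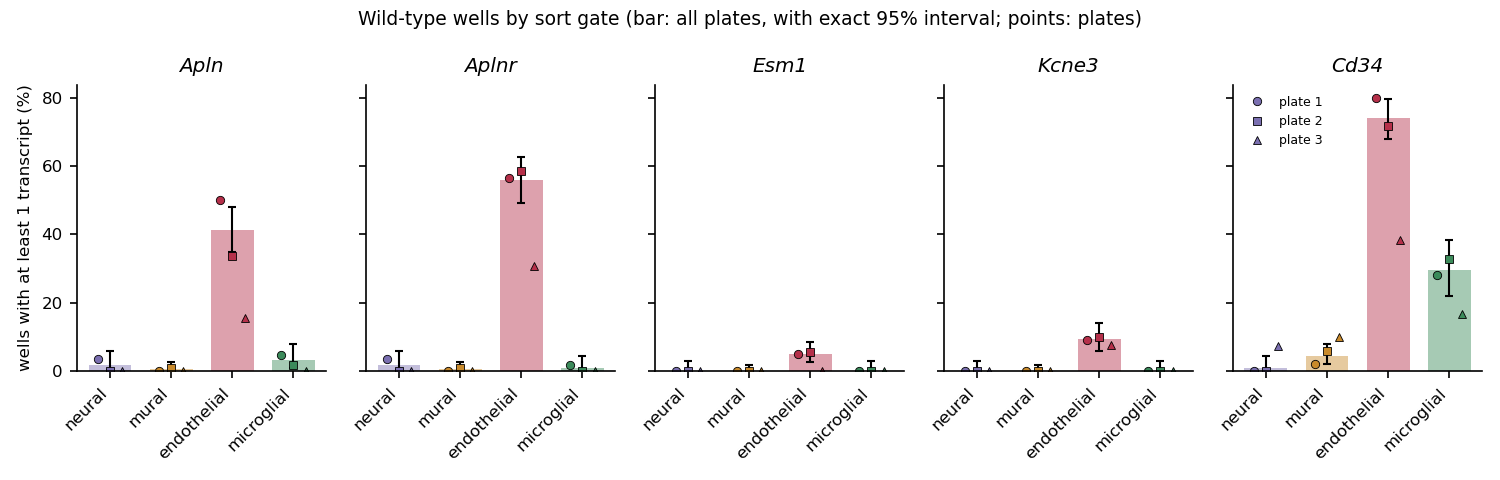
Share of wild-type wells with at least 1 transcript of each member, in percent, by sort gate, over all plates (bars, with exact 95% intervals as error bars) and on each of the 3 plates (points). The endothelial gate is highest in each panel, and *Cd34* is also found in 29.7% of microglial wells.

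Outside the endothelial gate *Apln* and *Aplnr* were rare. *Apln* was found in 2 of 123 neural wells (1.63%), 1 of 210 mural wells (0.476%) and 4 of 128 microglial wells (3.13%), and *Aplnr* in 2, 1 and 1. Barcodes of the wild-type libraries into which no cell was sorted carried *Apln* in 8 of 1056 cases (0.758%), with a median of 51.0 to 129.5 transcripts per library, so the mural share lay under this background. The neural level of *Apln* seen in bulk was not resolved in these wells: no difference was called between the neural and the mural gate (log2 difference 1.34, adjusted p = 0.53, edgeR on sums per plate) or between the neural gate and microglia (−1.01, adjusted p = 0.51). *Esm1* and *Kcne3* were found in no well of these gates, which allows shares of wells with a transcript of up to 2.44% (neural), 1.43% (mural) and 2.34% (microglial) at 3 wells of the total, or 2.95%, 1.74% and 2.84% by the exact 95% interval, and does not limit the share of cells that express them. *Cd34* was found in 38 microglial wells (29.7%, 21.9 to 38.4), 9 mural wells (4.29%) and 1 neural well (0.813%). The microglial wells were deeper (median 10761 transcripts, neural 7717), and thinned to 1500 the shares were 6.82%, 1.23% and 0.510%. Plates 1, 2 and 3 gave 28.1%, 32.8% and 16.7% of microglial wells, and 8 of the 128 wells held 3 or more endothelial markers.

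Summed per plate and gate, the endothelial gate exceeded the mean of the other gates by 6.54 for *Apln* (SE 0.35, adjusted p = 2.4e-23), 7.30 for *Aplnr* (SE 0.38, adjusted p = 4.7e-24) and 5.87 for *Cd34* (SE 0.29, adjusted p = 5.0e-25), with edgeR's quasi-likelihood test on 3 plates. These 3 members were called higher, as were 16.4% of the 9281 genes tested (6.96% were lower, 23.3% in all); *Esm1* and *Kcne3* were too scarce to pass the filter. The endothelial sums were 194 CPM for *Apln*, 208 for *Aplnr*, 483 for *Cd34*, 20.4 for *Kcne3* and 14.4 for *Esm1*. *Cd34* was again higher in microglia than in mural cells (56.2 against 6.45 CPM, mural minus microglial log2 difference −3.33, adjusted p = 8.2e-08, where 37.7% of genes were called).

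Within the endothelial gate the members overlapped unevenly. Of 225 wells 38 held none of the 5, 49 held 1, 61 held 2, 65 held 3, 8 held 4 and 4 held all 5 (median depth 4510 transcripts with none, 10501 with 3 and 7641 with all 5). *Apln* and *Aplnr*, ligand and receptor, were found together in 70 wells, where the share of each alone gives 52.8 (ratio 1.33), in 45 against 34 on plate 1, 25 against 18.2 on plate 2 and 0 against 0.615 on plate 3. *Aplnr* was thus in 75.3% of the *Apln*-positive wells and 42.4% of the others, and after thinning in 26.6% and 21.5% (ratio 1.18). *Apln*-positive wells held a median of 8837 transcripts and *Apln*-negative ones 5247.

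*Esm1* was found with *Apln* in 10 of its 11 wells, against 4.68 from each alone. The ratio was 2.13, and 4.12 after thinning, with 5 of 6 wells on plate 1 and 5 of 5 on plate 2. With *Aplnr*, in contrast, *Esm1* was found in 5 wells against 6.33 (ratio 0.789, after thinning 0.774), and with at least 2 transcripts of each the ratio was 1.57. *Kcne3* shared 14 of its 21 wells with *Apln* (8.69 from each alone, ratio 1.61, after thinning 2.13) and 14 with *Aplnr* (11.8, ratio 1.18). *Esm1* and *Kcne3*, both scarce, were found together in 5 wells against 1.04, 2 on plate 1 and 3 on plate 2 (ratio 4.81, after thinning 7.34). *Cd34* was present in 86 of the 93 *Apln* wells, in all 11 *Esm1* wells and in 20 of the 21 *Kcne3* wells, with ratios of 1.21, 1.31 and 1.28. Most *Esm1* and *Kcne3* wells held 1 transcript (6 of 11 and 13 of 21), so these ratios rest on few molecules and are a description.

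**Figure D3:**
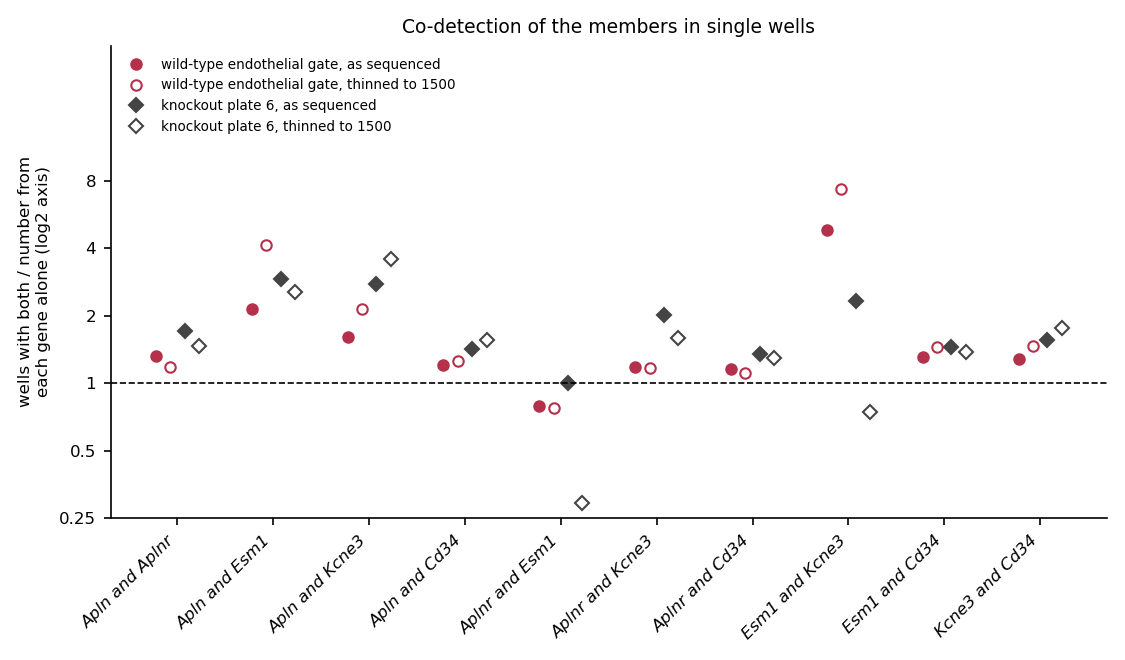
Wells with both members of a pair divided by the number that the share of each alone gives (log2 axis, dashed line at 1), for the wild-type endothelial gate (circles) and knockout plate 6 (diamonds), as sequenced (filled) and thinned to 1500 transcripts (open). *Esm1* and *Kcne3* together (4.81) and *Apln* with *Esm1* (2.13) lie highest for the wild-type gate, and *Aplnr* with *Esm1* (0.789) lies below the line.

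At equal depth, the 5 genes of 4330 whose share differed most with *Apln* were all more frequent in *Apln*-positive wells. *Odc1*, the first enzyme of polyamine synthesis, was in 38.9% of *Apln*-positive and 19.3% of *Apln*-negative wells, and *Tagln2*, an actin-binding protein, in 51.9% and 34.2%. *Trp53i11* (41.5% and 24.7%) and *Adm* (31.1% and 15.3%) are both in the tip cell list. The last, *Gm8730* (72.9% and 57.0%), is a gene model that can share reads with near-identical copies. Of the members *Cd34* was in 55.5% and 40.9%, *Esm1* in 7.51% and 0.569% and *Kcne3* in 5.73% and 2.02%. *Odc1*, *Tagln2* and *Trp53i11* were more frequent in *Apln*-positive wells on all 3 plates, and *Adm* and *Gm8730* on plates 1 and 2 but not on plate 3 (0% and 7.82% for *Adm*, 7.83% and 30.0% for *Gm8730*).

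*Apln*-positive and *Apln*-negative wells were then summed for each plate, and a quasi-likelihood test in edgeR with a term for plate compared them. Of 4889 genes 45 were called (0.920%), 10 higher (0.205%) and 35 lower (0.716%) in *Apln*-positive wells. The higher genes included cell division genes: *Cenpw* (log2 difference 2.30), *Birc5* (2.09), *Racgap1* (2.05), *Mki67* (1.81), *Top2a* (1.48) and *Ube2c* (1.30). Of 15 cell cycle genes tested 4 were higher and none lower (median 0.99, against −0.03 over all genes). *Mki67* was at 147, 474 and 91.9 CPM in the positive sums of plates 1, 2 and 3 and at 73.8, 48.4 and 50.6 CPM in the negative ones, with the positive sum of plate 3 resting on 1 transcript. In another split only *Apln* was thinned, in 1 random draw, while the summed transcripts were not. At that depth an expected 40.9 wells keep *Apln*, against 93 as sequenced, and the wells that lost it joined the negative sums. There *Mki67* differed by 0.08 (adjusted p = 0.98, edgeR), *Birc5* by 1.12 (0.11) and *Racgap1* by 0.42 (0.86). Mixing such wells into the negative sums can lower a difference, so this split cannot show the part of depth. The depth of the wells moved with the main split as given above, and its part was not tested.

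None of the 21 tip cell genes or 15 stalk genes tested was called, nor were the members *Cd34* (0.48, adjusted p = 0.95, edgeR) and *Aplnr* (0.27, adjusted p = 0.998). *Esm1* and *Kcne3* did not pass the filter. With no filter on low counts *Esm1* was called higher (3.92, adjusted p = 0.044, edgeR), and *Kcne3* was not called (1.39, adjusted p = 0.99). *Esm1* had 8, 15 and 0 transcripts in the positive wells of plates 1, 2 and 3 and 1, 0 and 0 in the negative ones, and *Kcne3* had 16, 10 and 0 against 3, 4 and 1. Among tip cell genes *Adm* came closest (1.07, adjusted p = 0.066). The lower genes held the arterial gap junction gene *Gja4* (−2.49, 51.7, 42.1 and 0 CPM in positive against 409, 68.3 and 101.2 in negative sums) and the arterial ephrin *Efnb2* (−1.41, adjusted p = 0.0079). Of 7 arterial and venous genes tested these 2 were called lower and none higher (median −0.28), and the arterial *Sox17* was at −0.07 (adjusted p = 0.998). In bulk, *Gja4* was at 3929 normalized counts in mural cells and 7707 in endothelial cells, and *Efnb2* had a higher mean in another population than in endothelial cells. The lower genes also held the neural gene *Fabp7* (−2.90), *Celf2* (−3.16), *Ttyh1* (−2.24) and *Dpysl3* (−2.16), and the mural genes *Abcc9* (−2.68) and *Rgs5* (−2.12), and 16 of the 35 were gene models without a common name. On plate 2 the mural genes ran the other way, *Rgs5* at 105 CPM in positive and 25.6 in negative wells and *Abcc9* at 24.6 and 5.69. Markers of other cells moved with the split: the mural markers summed to 142 CPM in positive and 832 in negative wells, microglial ones to 129 and 709, and neural ones to 474 and 684, and all 12 endothelial markers were present in both (8598 and 7096 CPM). By plate the directions differed: on plate 2 mural markers were at 190 CPM in positive and 56.9 in negative wells, and on plate 3 microglial ones at 551 and 16.9. Their part in the result was not tested.

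In wells with at least 3 endothelial markers, a limit set after seeing the data, 74 genes were called (1.49%), 21 higher (0.422%) and 53 lower (1.06%), and 38 of the 45 were among them. *Gja4* (−2.58) and *Mki67* (1.79) kept their calls there, and *Adm* and *Mcam* of the tip cell list were called higher. The count fell when any plate was left out. Without plate 3, which held 2 *Apln*-positive wells, 0 genes were called with edgeR, 482 had an unadjusted p under 0.05, and all 43 of the called genes that could be tested had the same sign. That sign comes from wells of plates 1 and 2 that the main fit also held, so it is not a separate test. Without plate 1 or 2 the count was 22 or 10. DESeq2 called 1 gene, *Celf2*, with 285 genes at an unadjusted p under 0.05, against 312 in edgeR.

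**Figure D4:**
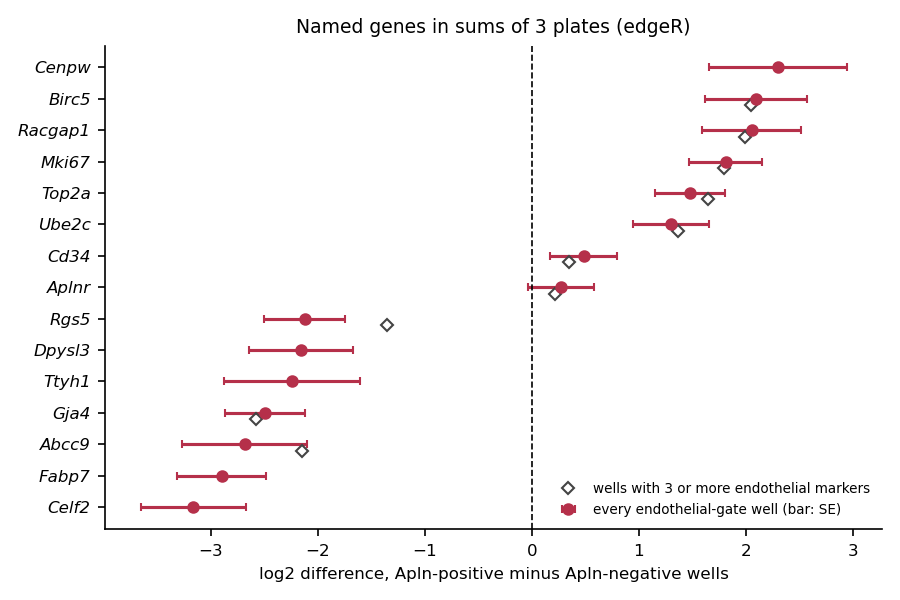
Log2 difference between *Apln*-positive and *Apln*-negative endothelial-gate wells, summed over 3 plates, for the genes of the naming rule that could be tested (points, bars are SE), with the same value in wells with at least 3 endothelial markers (diamonds, absent for genes under the filter there). Cell division genes lie to the right (*Cenpw* 2.30), *Celf2* (−3.16) and *Gja4* (−2.49) to the left, and the members *Cd34* (0.48) and *Aplnr* (0.27) near 0.

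Plate 6 of the *Mof* knockout held wells of endothelial character: 304 of 350 wells over 1500 transcripts had 3 or more of the 12 endothelial markers. There is 1 such plate and its gate is unknown, so genotype, plate and gate cannot be told apart and no test was made. *Cd34* was found in 194 wells (55.4%, exact 95% interval 50.1 to 60.7), *Aplnr* in 139 (39.7%, 34.6 to 45.1), *Apln* in 84 (24%, 19.6 to 28.8), *Kcne3* in 15 (4.29%) and *Esm1* in 10 (2.86%), the order of the wild-type gate. Each share was under that of the wild-type endothelial gate, and the median depth was lower as well (5414 against 6408 transcripts). The endothelial markers summed to 5838 CPM on plate 6 and 7886 in the wild-type gate, and the neural ones to 1489 (libraries 410 to 3474) and 574, and their part in the shares was not tested. Thinned to 1500, the shares were 30.8%, 16.7%, 10.6%, 1.30% and 0.983%, against 43.5%, 22.4%, 18.2%, 2.69% and 1.83%. Among thinned wells with 3 or more endothelial markers they were 35.2%, 19.0%, 12.2%, 1.49% and 1.13% for *Cd34*, *Aplnr*, *Apln*, *Kcne3* and *Esm1*, against 45.8%, 23.6%, 19.2%, 2.76% and 1.93% in the wild-type gate. The 4 libraries of the plate spread from 38.4% to 68.7% for *Cd34*, 31.4% to 48.2% for *Aplnr* and 19.3% to 30.9% for *Apln*, each under wild-type plates 1 and 2 (71.7% or more, 56.7% or more and 33.7% or more). Wild-type plate 3, with its 13 wells, stood at 38.5%, 30.8% and 15.4%, under all 4 libraries for *Aplnr* and *Apln* and under 3 of them for *Cd34*.

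Co-detection on plate 6 is given beside the wild-type gate without a test. It covers all 350 wells, and 46 of them held under 3 endothelial markers, with *Apln* in 1 and *Aplnr* in 2. The part of these wells in the ratios was not tested. The number from each alone was formed over all libraries of plate 6 together, but plate by plate in the wild-type gate. *Apln* and *Aplnr* were found together in 57 wells against 33.4 from each alone (ratio 1.71, after thinning 1.47). *Apln* with *Esm1* and with *Kcne3* gave ratios of 2.92 and 2.78 (after thinning 2.55 and 3.57). *Esm1* and *Kcne3* shared 1 well against 0.429 (ratio 2.33, after thinning 0.747), and *Aplnr* with *Esm1* had a ratio of 1.01 (after thinning 0.293). The thinned ratios of *Esm1* rest on under 1 expected well with both, 0.933 with *Apln*, 0.0333 with *Kcne3* and 0.168 with *Aplnr*. They are too few to be read as a change. On the other knockout plates *Apln* was found in 4 of 337 wells of plate 4, where 91.1% of wells had 3 or more mural markers, and in 2 of 195 wells of plate 5. *Cd34* was found in 13 wells of each (3.86% and 6.67%), *Aplnr* in 1 and 0, *Esm1* in 0 and 1, and *Kcne3* in none.

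**Figure D5:**
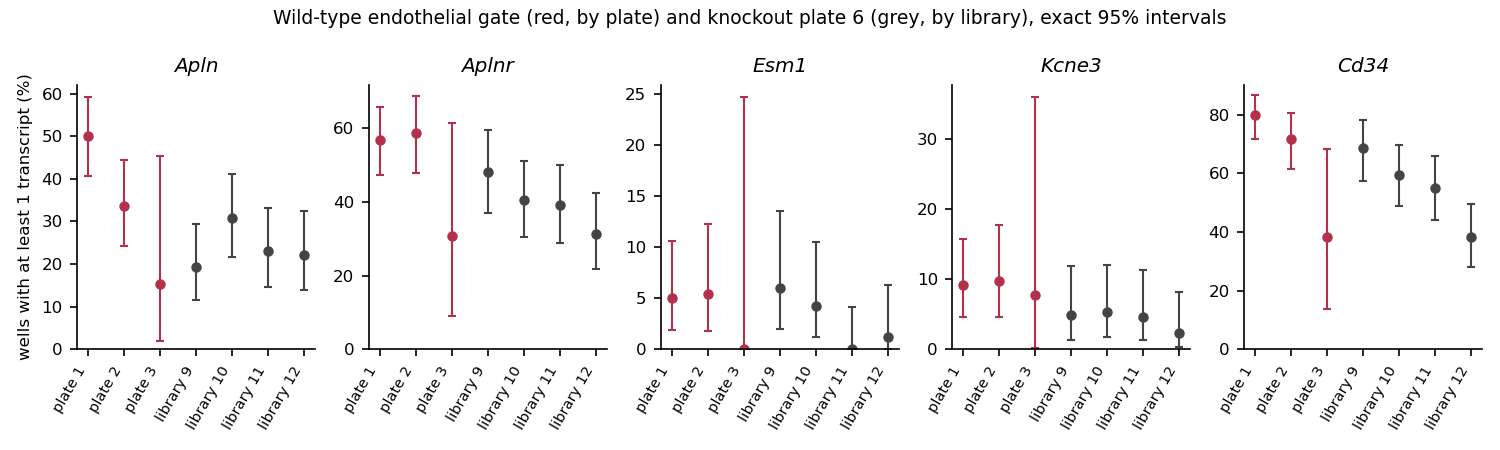
Share of wells with at least 1 transcript of each member, in percent with exact 95% intervals, for the wild-type endothelial gate by plate (red) and for *Mof* knockout plate 6 by library (grey). The libraries of plate 6 run from 19.3% to 30.9% for *Apln* and from 38.4% to 68.7% for *Cd34*, all under wild-type plates 1 and 2 for these genes, and plate 3, which holds 13 wells, lies at 15.4% and 38.5%.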

How the data were processed

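Bulk RNA-seq and mCEL-Seq2 tables of sorted E14.5 brain cells were used as deposited. The bulk values are a signal: read counts per gene, normalized by the authors with 1 factor per library. Of 123944 low values, 100% were whole multiples of 1 read within 0.01, so reads could be recovered for count tests. The submitters' processing notes name STAR, featureCounts, DESeq2, BWA 0.6.2-r126 and mm10, without roles. The deposited single-cell values are expected counts, that is transcripts corrected by the authors for molecular identifiers drawn more than once from a pool of 4096; they were rounded for tests, and 2 spike-in rows were left out. The deposited table of sort gates has other values, 1 gate as text for each wild-type well except 37 without one. A further gate, PDGFRβ medium or low, had 23 wells over the minimum, and none held a member, which allows a share of wells of up to 13.0%.

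The bulk values were tested as log2(normalized count + 1) in 1 fit of all 4 populations (limma 3.58.1, R 4.3.3), for genes with a mean of at least 10, with Benjamini-Hochberg adjustment and a threshold of 0.05. Single cells used wells with over 1500 transcripts, summed per plate and gate, and the quasi-likelihood test of edgeR 4.0.16. DESeq2 1.42.0 was an alternative. Shares carry exact Clopper-Pearson intervals at 95%. Thinned shares are the expected shares after drawing 1500 transcripts from each well. No doublet caller was run. Of 253 pairs of libraries, 121 use the same barcodes for their sorted wells.

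The members and gene lists were chosen with earlier results of these data known. Named genes are the members, the 3 called genes with the largest difference in each list, the 5 genes most like each member, the 10 largest called differences between *Apln*-positive and *Apln*-negative wells with the called genes of the tip cell, stalk and cell cycle lists, and the 5 genes whose thinned share differed most. Markers of other cells are given by their sums. The other genes printed with a value, such as *Ednrb*, *Cxcr4*, *Angpt2*, *Arrb2*, *Gnai2*, *Gna13*, *Klf2*, *Efnb2*, *Mcam*, *Nid1*, *Nrp1*, *Mmp14*, *Plaur*, *Gata2*, *Ly6a*, *Kit*, *Esam* and *Icam2*, were named after their values were seen. Each brain gave 1 library of every population, which pairs the libraries by brain, and same-brain deviations correlated at −0.054 to 0.0801. The tests were tested on simulated data. Whether a plate holds 1 brain is not stated, so p-values over plates measure the spread between plates only.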

Additional observations from a re-analysis of the deposited data

Results flagged for a closer look

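On knockout plate 6, *Apln* stood at 151.08 CPM in library 10 and at 76.2 to 85.8 CPM in the other 3 libraries, a gap wide enough to set that library apart among 4. About 1 in 20 such groups is set apart by chance.

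Knockout plate 5, which enters no comparison, held *Cd34* in 13 of 195 wells (6.67%, exact 95% interval 3.60 to 11.1), above the 0.813% of the wild-type neural gate and under the 29.7% of the wild-type microglial gate. On that plate 52.3% of wells had 3 or more microglial markers and 61.0% had 3 or more neural ones, and their part in it was not tested.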

How the results depend on the processing

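Against the mean of the other populations the 5 members kept their direction and call under each alternative tried in bulk. Against single populations *Esm1* lost its call against mural cells as given above, and against microglia without the second brain (adjusted p = 0.080, limma). The count of genes called against the mean of the other populations, 8322, was 4633 without the neural libraries and 5930 to 6431 without 1 brain. The 5496 genes called against mural cells became 3519 to 4060, fewest without the second brain. *Birc5* turned to −0.10 without the neural libraries; the cause was not tested. With brain as a replicate block 8014 genes were called, and this pairing changed no call of a gene named in the bulk results. In the single-cell sums 2167 genes were called, 1052 with DESeq2 and 717 to 2856 without 1 plate (758 without plate 1, 717 without plate 2). For *Apln*-positive against *Apln*-negative wells, 45 became 1 with DESeq2, 89 with no filter, 74 in wells with 3 endothelial markers (an alternative chosen after seeing the data), 65 with no replicate block for plate, and 0 to 22 without 1 plate (22 without plate 1, 10 without plate 2, 0 without plate 3). *Aplnr* in that split ran from −0.47 without plate 1 to 0.39 without plate 3. The ratio of *Aplnr* with *Esm1* was 1.57 with at least 2 transcripts of each. On knockout plate 6, *Apln*, *Aplnr*, *Kcne3* and *Cd34* were at 10.6%, 16.7%, 1.30% and 30.8% after thinning, and at 12.2%, 19.0%, 1.49% and 35.2% after thinning in wells with 3 endothelial markers, also chosen after seeing the data. Most wild-type endothelial wells with *Esm1* or *Kcne3* held 1 transcript of it, and the part of depth in their detection was not tested.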
